A study of Homo sapiens with 12 samples.

Results

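UM-UC14 bladder cancer cells carrying a short hairpin RNA (shRNA) against FABP4 were compared with UM-UC14 cells carrying a non-targeting shRNA, over every gene detected on the arrays. The comparison rests on 6 of the 12 arrays of the series, 3 for each shRNA, taken by the treatment and cell line that the labels give. UM-UC14 is an established human line from a urothelial carcinoma, the cancer of the lining of the bladder and upper urinary tract. Both groups carried an shRNA, and UM-UC14 cells without one were not analysed here. The other 6 arrays came from UM-UC9, another urothelial cancer line, given rosiglitazone at 1 µM for 24 hours or left untreated. Those arrays entered the normalization, the choice of probes and genes, the estimate of the spread and a closing comparison. The RNA was amplified as cRNA carrying biotin and read on Illumina bead arrays, on which each probe reads 1 short stretch of a transcript. A level is a normalized intensity on the log2 scale, so that a difference of 1 is a doubling, and levels of different genes are not set against each other. Each group held replicates 1 to 3, and nothing says whether these were separate cultures, so p-values measure only the spread between arrays that may be technical repeats. How many hairpin sequences were used against FABP4, and whether the cells were a pool or a clone, the sources used here do not state. What a hairpin does besides lowering FABP4 cannot be told apart from what lower FABP4 does. The number of arrays limits the precision of every value.

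FABP4 is a small cytoplasmic protein that binds fatty acids and carries them to membranes, enzymes and the nucleus. Its gene is a classical target of the nuclear receptor PPARG, which drives fat storage in adipocytes and differentiation in urothelium. A link between fatty acid supply and the programmes described here was not tested. SREBP transcription factors switch on sterol and fatty acid synthesis when membranes lack sterols, the integrated stress response adjusts translation and amino acid supply, and hypoxia-inducible factors switch on glycolysis.

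FABP4 was lower on every array with the FABP4 shRNA. Its normalized log2 intensity was 10.36, 10.13 and 10.50 with FABP4 shRNA, against 13.94, 14.13 and 14.06 with non-targeting shRNA. The groups did not overlap, and the log2 fold change was -3.71 (SE 0.11, adjusted p = 2.87e-10 by limma over all genes tested), a 13.1-fold lower level. Levels are averages over a culture, so that fewer cells with FABP4 RNA and less of it per cell cannot be told apart. PPARG read 12.52, 12.56 and 12.43 with FABP4 shRNA, against 12.45, 12.96 and 12.73 with non-targeting shRNA, with a log2 fold change of -0.21 (adjusted p = 0.204). Other probes of PPARG gave -0.29 to -0.02. In the limma fit without non-targeting replicate 1, PPARG was called lower, at -0.34 (adjusted p = 0.0113). Non-targeting replicate 1 was inside the range of the FABP4 shRNA arrays for PPARG but close to the other controls for FABP4, where it stood 0.16 below their mean.

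Each of the 6 arrays detected 21275 to 22407 of its 47323 probes. All 12 urothelial and epithelial markers that were looked for were detected on all 6 arrays. Among them were the keratins KRT7, KRT8, KRT18 and KRT19 and the transcription factor GATA3. Of the 12, 4 fell (CDH1, GATA3, ELF3 and ESRP1) and 0 rose, against 12.2% and 14.2% of all genes tested. FABP4 shRNA arrays correlated with each other at r of 0.9966 to 0.9971 across genes, and non-targeting replicates 2 and 3 at 0.9933. Non-targeting replicate 1 had an r of 0.9889 to the FABP4 shRNA mean, and of 0.9875 to the mean of its fellow controls. It was nearer to the FABP4 shRNA mean than to the other controls for 55.3% of genes, against 31.0% for replicate 2 and 35.1% for replicate 3. Its labels are the same as those of replicates 2 and 3, and its FABP4 level is like theirs. The genes described in most detail are therefore given with the value of each non-targeting array. Genes that lost their call against replicate 1 alone are given with their change in that fit or named as such. With 1 control array in place of 3, a call can be lost at a similar change. CREBBP, for instance, gave -0.38 against all controls and -0.36 against replicate 1.

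Among the 13293 genes tested, 3502 passed (26.3%), with the adjusted p of Benjamini and Hochberg under 0.05. Of these, 1885 were higher with FABP4 shRNA (14.2%) and 1617 were lower (12.2%). The genes tested include 663 that were detected on no UM-UC14 array, of which 0 were called. Of the 10722 detected on all 6 UM-UC14 arrays, 3209 were called. Shares of all genes are therefore a little low beside lists whose members were nearly all detected. Most differences were small. The median size of a called change was 0.52 log2 units, and 91.3% of called genes differed by less than 2-fold. Larger changes were mostly falls: 228 genes were at least 2-fold lower and 76 at least 2-fold higher. With arrays scaled to a common median in place of quantile normalization, 70.0% of the called genes were higher, against 53.8% here, and the median of all genes was 0.10 in place of 0.02. The balance of rises and falls thus depends on the scaling. The 3 FABP4 shRNA arrays all lay above the 3 non-targeting arrays for 2674 genes (20.1%) and all below them for 2180 genes (16.4%), called or not.

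**Figure D1:**
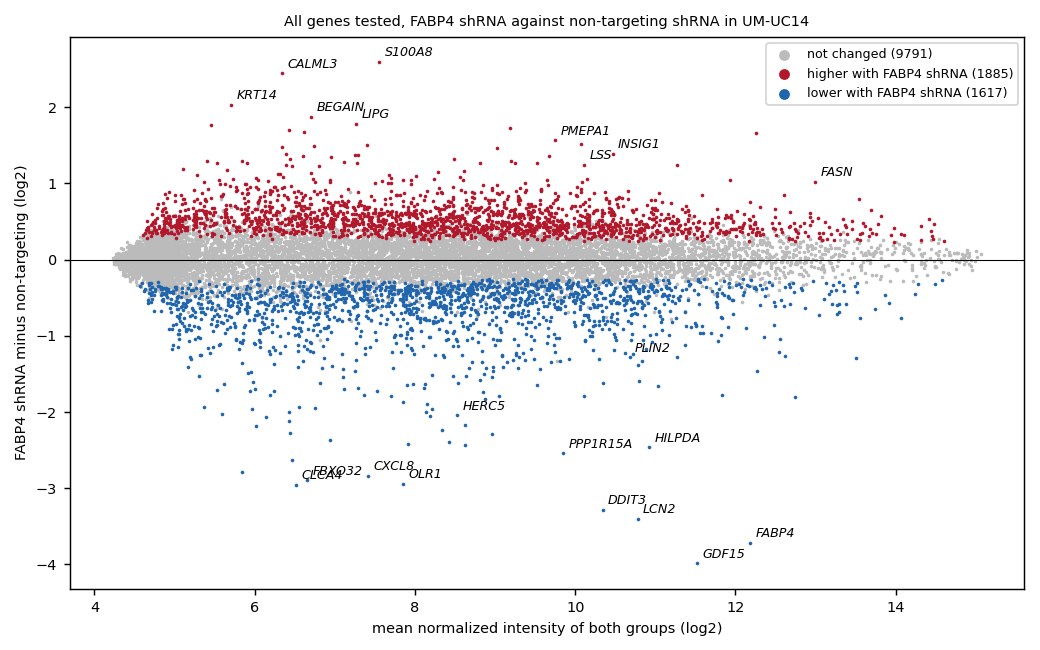
Difference between FABP4 shRNA and non-targeting arrays (log2) against the mean level of both groups (log2), 1 point for each of 13293 genes. The 1885 genes higher with FABP4 shRNA are red, the 1617 lower genes are blue and the rest grey, and the largest changes, down to -3.99 for GDF15, are falls.

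The control arrays in the fit moved these counts. When non-targeting replicate 1 alone stood for the controls, 1945 genes changed, 931 higher (7.00%) and 1014 lower (7.63%). That fit takes the spread of the single control from the other groups. It holds 1 control in place of 3, and neither replicate 2 nor replicate 3 was run as the only control. The lower count therefore cannot be credited to replicate 1 rather than to fewer arrays. Leaving out any 1 of the 6 arrays other than replicate 1 also lowered the count, to 2377 to 2868 genes. Of its calls, 1317 were also called in the same direction against all 3 controls, which is 67.7% of its calls and 37.6% of the 3502. The sign differed for 24 of the 3502 genes, and none of these was called against replicate 1. Without replicate 1, 5248 genes changed, 2823 higher (21.2%) and 2425 lower (18.2%). Across the fits that each left out 1 of the 6 arrays, 1878 genes kept their call and direction, 958 higher and 920 lower, which is 53.6% of the calls.

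The largest falls, among genes whose groups did not overlap, were led by GDF15, FABP4, LCN2 and DDIT3. GDF15, a stress cytokine of the TGF-beta superfamily, read 9.51, 9.78 and 9.29 with FABP4 shRNA, against 12.90, 13.87 and 13.77 with non-targeting shRNA (log2 fold change -3.99, SE 0.24, adjusted p = 4.89e-07). LCN2, a secreted carrier of iron-binding siderophores, read 9.03, 8.98 and 9.22 with FABP4 shRNA, against 12.74, 12.45 and 12.24 with non-targeting shRNA (log2 fold change -3.40, SE 0.12, adjusted p = 1.9e-09). OLR1, a scavenger receptor for oxidised LDL, read 6.46, 6.34 and 6.33 with FABP4 shRNA, against 9.48, 9.39 and 9.08 with non-targeting shRNA (log2 fold change -2.94, SE 0.12, adjusted p = 4.31e-09). The groups of each of these genes lay more than 2 log2 units apart, with all 3 controls close together for LCN2 and OLR1. FBXO32, a ubiquitin ligase subunit known from muscle wasting, read 5.05, 5.17 and 5.39 with FABP4 shRNA, against 8.09, 8.02 and 8.18 with non-targeting shRNA (log2 fold change -2.89, adjusted p = 9.09e-09), and its other probe gave -2.17. TCP11L2 was detected on all 3 non-targeting arrays and on none with FABP4 shRNA. Its level was at least 5.45-fold lower with FABP4 shRNA (adjusted p = 6.98e-08). LDHD, a mitochondrial D-lactate dehydrogenase, had a log2 fold change of -2.63 (adjusted p = 5.09e-07), but its other probe gave -0.64.

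For several other large falls, non-targeting replicate 1 stood between the FABP4 shRNA arrays and the remaining controls. CLCA4, of a family of secreted regulators of chloride channels, read 4.97, 5.12 and 5.01 with FABP4 shRNA, against 6.96, 8.40 and 8.61 with non-targeting shRNA (log2 fold change -2.95, SE 0.30, adjusted p = 2.84e-05). CXCL8, the neutrophil-attracting chemokine interleukin 8, read 6.03, 6.14 and 5.82 with FABP4 shRNA, against 7.65, 9.93 and 8.91 with non-targeting shRNA (log2 fold change -2.83, SE 0.39, adjusted p = 0.000261), and its other probe gave -1.98. Both fell against replicate 1 alone too, with log2 fold changes of -1.92 and -1.66. The U1 small nuclear RNA genes RNU1-3 and RNVU1-7 belong to a family of near-identical copies that splicing uses, and their probes may not tell the copies apart. RNU1-3 read 7.31, 7.43 and 7.50 with FABP4 shRNA, against 8.72, 9.97 and 10.84 with non-targeting shRNA (log2 fold change -2.43, SE 0.36, adjusted p = 0.000494). RNVU1-7 gave -2.39 and RNVU1-18 gave -2.29. All 3 controls lay above the FABP4 shRNA arrays for these RNAs, but they spanned more than 2 log2 units among themselves.

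**Figure D2:**
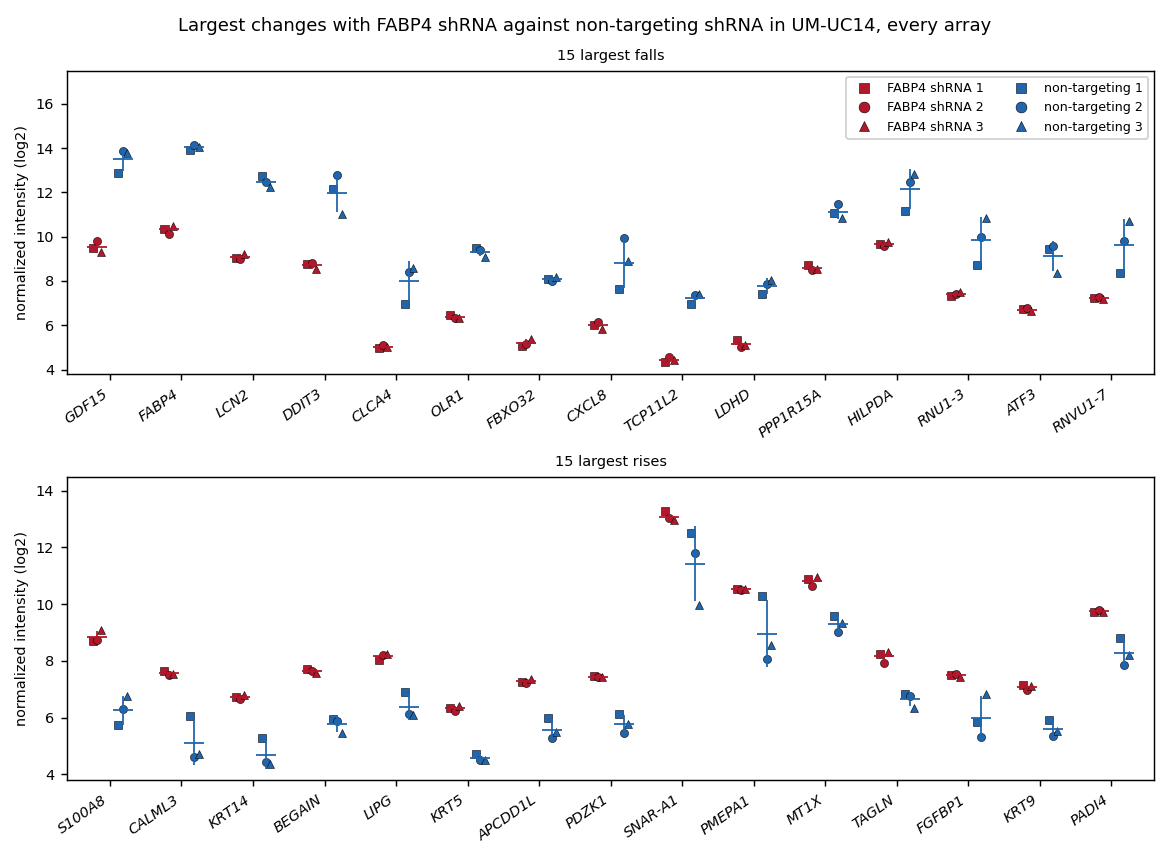
Normalized intensity (log2) of the 15 largest falls (upper panel) and 15 largest rises (lower panel) among called genes whose groups do not overlap, on each array, FABP4 shRNA in red left of non-targeting in blue; squares, circles and triangles are replicates 1, 2 and 3, and bars are mean ± SD (n = 3). For FABP4, LCN2, OLR1 and FBXO32 the 3 controls lie close together, whereas for CXCL8, RNVU1-7, PMEPA1 and SNAR-A1 they spread over more than 2 log2 units.

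The largest rises whose groups did not overlap were led by S100A8, CALML3 and KRT14. S100A8, a calcium-binding alarmin of keratinocytes and neutrophils, read 8.71, 8.74 and 9.10 with FABP4 shRNA, against 5.73, 6.30 and 6.75 with non-targeting shRNA (log2 fold change 2.59, SE 0.20, adjusted p = 4.44e-06). Its partner S100A9 read 12.40, 12.40 and 12.56 with FABP4 shRNA, against 11.24, 11.45 and 11.54 with non-targeting shRNA (log2 fold change 1.04, SE 0.10, adjusted p = 2e-05). Replicate 1 was the lowest control for both, so that the rise was larger against it alone, 3.12 and 1.22. CALML3, a calmodulin-like protein of epithelia, read 7.63, 7.51 and 7.53 with FABP4 shRNA, against 6.04, 4.59 and 4.71 with non-targeting shRNA (log2 fold change 2.44, SE 0.27, adjusted p = 5.51e-05). KRT14, a keratin of basal cells, read 6.71, 6.64 and 6.80 with FABP4 shRNA, against 5.29, 4.43 and 4.35 with non-targeting shRNA (log2 fold change 2.03, SE 0.19, adjusted p = 2.01e-05). For CALML3 and KRT14 only 1 of the 3 controls was detected, so the size of the difference is not exact. KRT5, the keratin that pairs with KRT14, was detected on all 3 FABP4 shRNA arrays and on no non-targeting array, and the FABP4 shRNA arrays were at least 2.83-fold higher (adjusted p = 2.3e-05).

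In further large rises the 3 controls lay within 1 log2 unit of each other. BEGAIN, a scaffold protein known from synapses, read 7.70, 7.64 and 7.59 with FABP4 shRNA, against 5.97, 5.87 and 5.47 with non-targeting shRNA (log2 fold change 1.87, SE 0.14, adjusted p = 2.75e-06). PDZK1, a scaffold for membrane transporters, gave 1.67 (adjusted p = 4.44e-06), and APCDD1L gave 1.70 (adjusted p = 6.48e-06). LIPG, a secreted lipase that hydrolyses phospholipids of HDL, read 8.05, 8.20 and 8.23 with FABP4 shRNA, against 6.92, 6.14 and 6.08 with non-targeting shRNA (log2 fold change 1.78, SE 0.17, adjusted p = 2.3e-05). PADI4, an enzyme that turns arginine of proteins into citrulline, gave 1.46, and KRT9, a keratin of palm and sole skin, gave 1.47. MT1X, a metal-binding metallothionein, read 10.88, 10.62 and 10.97 with FABP4 shRNA, against 9.59, 9.02 and 9.32 with non-targeting shRNA (log2 fold change 1.52, SE 0.17, adjusted p = 6.85e-05), whereas 4 of the 6 tested members of the metallothionein list did not pass. The zinc exporter SLC30A1, of the same list, fell by 0.75.

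In other rises the controls lay far apart. PMEPA1, an inhibitor of TGF-beta signalling, read 10.53, 10.52 and 10.53 with FABP4 shRNA, against 10.28, 8.06 and 8.56 with non-targeting shRNA (log2 fold change 1.56, SE 0.39, adjusted p = 0.00993). It gave only 0.25 beside replicate 1 (adjusted p = 0.354), and its other probes gave 0.58 to 1.59. SNAR-A1, a small noncoding RNA with near-identical copies, read 13.27, 13.03 and 12.96 with FABP4 shRNA, against 12.52, 11.80 and 9.96 with non-targeting shRNA (log2 fold change 1.66, SE 0.53, adjusted p = 0.0343), with replicate 3 far below the rest, and 0.57 against replicate 1 alone (adjusted p = 0.5). FGFBP1, a secreted carrier that releases fibroblast growth factors from the matrix, read 7.49, 7.55 and 7.42 with FABP4 shRNA, against 5.84, 5.31 and 6.83 with non-targeting shRNA (log2 fold change 1.50, SE 0.26, adjusted p = 0.00125), with replicate 3 nearest to the FABP4 shRNA arrays.

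Genes were also ranked by how far non-targeting replicate 1 lay from the mean of replicates 2 and 3, among genes detected on all 6 arrays, as a description of that array. TXNIP, an arrestin-like protein that limits glucose uptake, headed the genes highest in replicate 1. It read 10.11, 9.85 and 10.19 with FABP4 shRNA, against 10.37, 7.09 and 7.51 with non-targeting shRNA. Replicate 1 was above all FABP4 shRNA arrays, replicates 2 and 3 were more than 2 log2 units below them, and the rise over all controls (1.72, adjusted p = 0.0391) became -0.32 against replicate 1 alone (adjusted p = 0.141). INHBE, a subunit of the growth factor activin E, read 6.33, 6.53 and 6.01 with FABP4 shRNA, against 8.95, 7.81 and 5.29 with non-targeting shRNA (log2 fold change -1.06, adjusted p = 0.225). The iodothyronine deiodinase DIO2 read 7.68, 7.56 and 7.67 with FABP4 shRNA, against 8.05, 6.15 and 6.04 with non-targeting shRNA, and the proteoglycan SPOCK1 read 6.28, 6.41 and 6.49 with FABP4 shRNA, against 7.04, 4.92 and 5.33 with non-targeting shRNA. None of these 3 passed the test (DIO2 0.89, adjusted p = 0.0902, and SPOCK1 0.63, adjusted p = 0.226). PMEPA1 came next after TXNIP and INHBE in this order. TXNIP is not among the largest rises above because its groups overlapped.

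Of the genes lowest in replicate 1, 2 were the U1 RNAs RNVU1-18 and RNVU1-7. The ion channel CNGA1 read 6.79, 6.95 and 6.67 with FABP4 shRNA, against 6.34, 8.06 and 8.43 with non-targeting shRNA and did not pass the test (-0.81, adjusted p = 0.118). CYP3A7, a cytochrome P450 of fetal liver, read 5.97, 6.26 and 6.20 with FABP4 shRNA, against 5.99, 8.11 and 7.59 with non-targeting shRNA. Its fall over all controls (-1.09, adjusted p = 0.0411) became 0.15 against replicate 1 alone (adjusted p = 0.518). CDH5, the cadherin of endothelial junctions, read 4.86, 5.19 and 5.40 with FABP4 shRNA, against 5.62, 7.42 and 7.50 with non-targeting shRNA (-1.70, adjusted p = 0.00398), and gave -0.47 against replicate 1 alone (adjusted p = 0.0772). In this set, replicate 1 was inside or next to the range of the FABP4 shRNA arrays for CYP3A7 and CDH5, and it was below that range for CNGA1.

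Lists of genes with a shared role were then read on each array, as the median over a list's tested genes of the difference from the mean of the 3 FABP4 shRNA arrays. Over all genes these medians were -0.01, -0.02 and -0.03 on non-targeting replicates 1, 2 and 3. The 3 FABP4 shRNA arrays stayed within 0.15 of their mean in each of 37 lists. The non-targeting arrays did not move together. In some lists all 3 lay on the same side of the FABP4 shRNA arrays, as for cholesterol synthesis, fatty acid synthesis, hypoxia, interferon and NF-kB genes. In the lists of the integrated stress response and of the chaperones of the endoplasmic reticulum, replicates 1 and 2 lay more than 0.5 above the FABP4 shRNA arrays and replicate 3 lay at their level. In others, such as MYC and proteasome genes, replicate 1 lay near it.

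**Figure D3:**
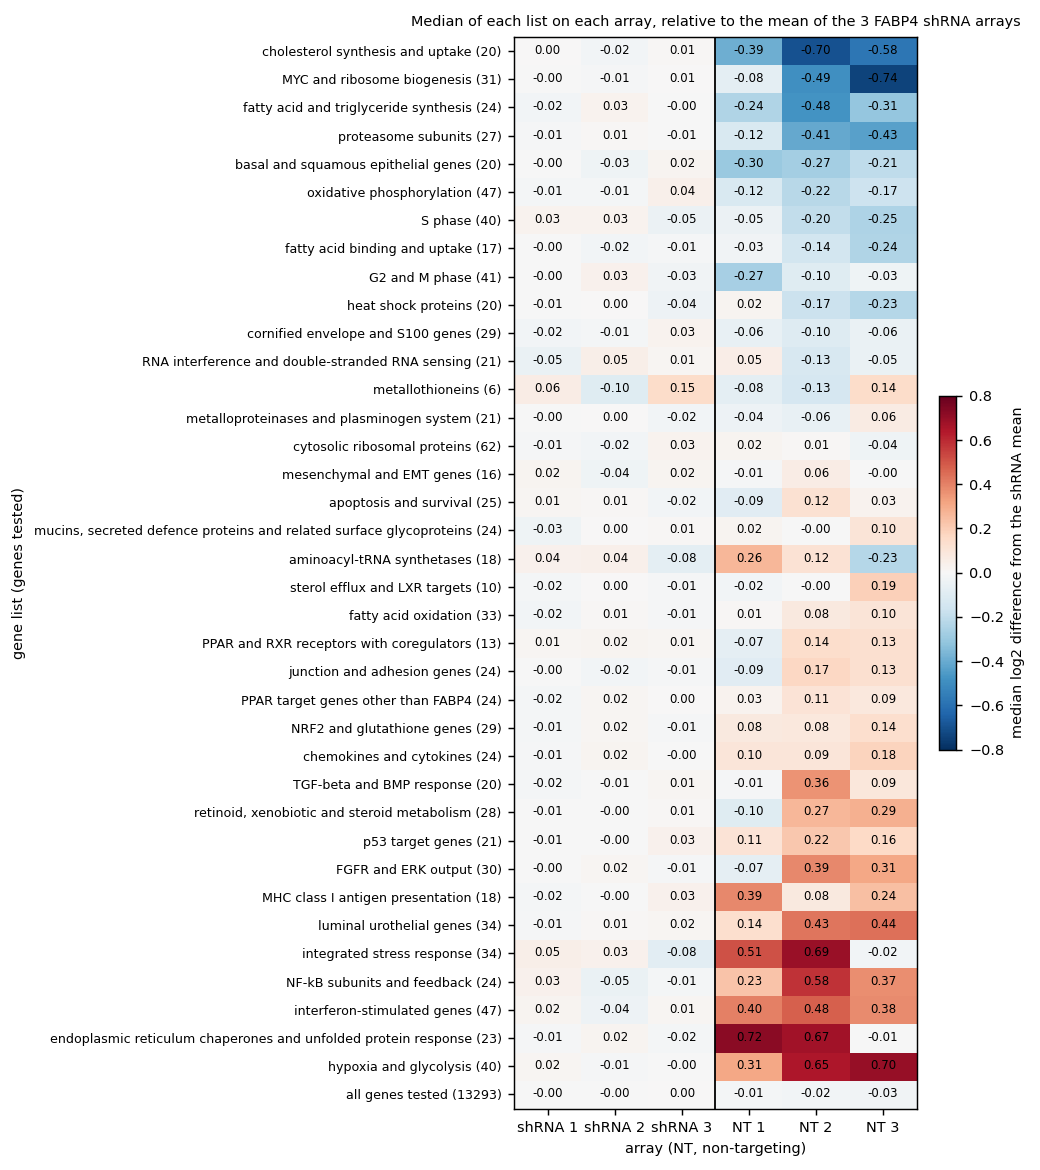
Median over the tested genes of 37 lists, and over all 13293 genes, of the log2 difference from the mean of the 3 FABP4 shRNA arrays, on each FABP4 shRNA array (left) and non-targeting (NT) array (right). Cholesterol genes are below 0 on all 3 NT arrays (-0.39, -0.70 and -0.58), stress response genes are near 0 on NT 3 (-0.02), and MYC genes are near 0 on NT 1 (-0.08).

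Cholesterol synthesis and uptake genes were higher with FABP4 shRNA. Of 20 tested, 13 rose and 0 fell, against 14.2% and 12.2% of all genes, with a median log2 fold change of 0.56 against 0.02 over all genes. Non-targeting replicates 1 to 3 had list medians of -0.39, -0.70 and -0.58 relative to the FABP4 shRNA mean. All 13 rises kept their call in each fit that left out 1 array, and 9 were called against replicate 1 alone, where 7.00% of all genes rose.

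INSIG1, which holds the SREBP escort protein in the endoplasmic reticulum and is itself an SREBP target, read 11.24, 11.27 and 10.97 with FABP4 shRNA, against 9.73, 9.36 and 10.23 with non-targeting shRNA (log2 fold change 1.39, SE 0.18, adjusted p = 0.000154). LSS, which closes the ring of the sterol skeleton, read 10.72, 10.64 and 10.85 with FABP4 shRNA, against 9.46, 9.23 and 9.79 with non-targeting shRNA (log2 fold change 1.24, SE 0.12, adjusted p = 2.84e-05), but its other probes gave 0.02 to 0.48. IDI1, which makes an isoprenoid building block, read 10.52, 10.70 and 10.57 with FABP4 shRNA, against 9.52, 9.64 and 9.57 with non-targeting shRNA (log2 fold change 1.02, SE 0.09, adjusted p = 1.57e-05). In each of these genes all 3 controls lay more than 0.7 log2 units below the lowest FABP4 shRNA array. MSMO1, a sterol demethylation enzyme, gave 0.95 (adjusted p = 0.000176), with 0.12 to 0.35 on its other probes. The early enzyme MVK, mevalonate kinase, read 7.91, 7.77 and 7.94 with FABP4 shRNA, against 7.15, 7.16 and 6.97 with non-targeting shRNA (log2 fold change 0.78, SE 0.11, adjusted p = 0.000256). DHCR7, which makes the last step to cholesterol, gave 0.77, the demethylase CYP51A1 0.70, the prenyl synthase FDPS 0.60, ACAT2 0.57, EBP 0.55, and SQLE, which forms squalene epoxide, 0.52. FDPS gave 0.34 and SQLE 0.36 against replicate 1 alone, where neither was called.

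Within the list, HMGCS1 and NSDHL differed between the controls. HMGCS1, which makes the precursor of mevalonate, read 10.63, 10.58 and 10.59 with FABP4 shRNA, against 10.44, 9.73 and 9.67 with non-targeting shRNA (log2 fold change 0.65, SE 0.16, adjusted p = 0.009). NSDHL, another sterol demethylation enzyme, read 9.99, 9.98 and 9.97 with FABP4 shRNA, against 9.78, 9.26 and 9.38 with non-targeting shRNA (log2 fold change 0.51, SE 0.12, adjusted p = 0.00641). They gave 0.16 and 0.20 against replicate 1 alone and did not pass (adjusted p = 0.353 and 0.19), whereas INSIG1 gave 1.43 and IDI1 1.07. The members that did not pass against all controls were MVD (0.35), PMVK (0.27), GGPS1 (0.13), TM7SF2 (0.08), HSD17B7 (-0.01), SC5D (-0.05) and SREBF2 (0.02), the last of which encodes the transcription factor that switches the pathway on. Without replicate 1, MVD (0.52, adjusted p = 0.00921) and PMVK (0.37, adjusted p = 0.0373) were called higher. In that fit 15 genes of the list rose, where 21.2% of all genes did. SREBF2 was dim, at 5.26, 5.23 and 5.23 with FABP4 shRNA, against 4.81, 5.55 and 5.29 with non-targeting shRNA. The core of a sterol regulatory element, TCACNCCAC or its complement, stood in 0 of 11 promoters of the risen genes. It stood in 1 of 18 of all tested genes of the list, against 1.15% of 27305 human promoters (RefSeq). So few promoters cannot tell a count of 0 from that share.

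Genes of fatty acid and triglyceride synthesis were also higher. Of 24 tested, 13 rose and 1 fell, against 14.2% and 12.2% of all genes (median 0.36), with list medians of -0.24, -0.48 and -0.31 on non-targeting replicates 1 to 3. FASN, which builds palmitate, read 13.51, 13.50 and 13.50 with FABP4 shRNA, against 12.52, 12.42 and 12.50 with non-targeting shRNA (log2 fold change 1.02, SE 0.09, adjusted p = 1.03e-05). ELOVL6, which lengthens palmitate, read 10.21, 10.19 and 10.07 with FABP4 shRNA, against 9.45, 8.82 and 9.25 with non-targeting shRNA (log2 fold change 0.98, SE 0.14, adjusted p = 0.000296). SCD, which puts a double bond into stearate, read 13.95, 14.06 and 13.80 with FABP4 shRNA, against 13.19, 13.14 and 13.11 with non-targeting shRNA (log2 fold change 0.79, SE 0.09, adjusted p = 7.79e-05). The 3 controls were within 0.7 log2 units of each other for these enzymes and below every FABP4 shRNA array. LPIN1, a phosphatidate phosphatase that also acts as a coactivator, gave 0.83 (adjusted p = 0.00104). Of 10 sterol efflux and LXR target genes, 2 rose and 3 fell, against 14.2% and 12.2% of all genes. The cholesterol exporter ABCG1 read 9.96, 10.09 and 9.88 with FABP4 shRNA, against 10.83, 11.24 and 11.04 with non-targeting shRNA (log2 fold change -1.06, SE 0.12, adjusted p = 6.77e-05), and its other probes ranged from -1.11 to 0.05. ABCA1, the exporter to lipid-poor apolipoprotein, gave -0.40 (adjusted p = 0.0161), and -0.18 against replicate 1 alone, where it was not called.

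PPAR target genes other than FABP4 were called about as often as all genes. Of 24 tested, 2 rose and 5 fell (median -0.06), against 14.2% and 12.2% of all genes. PLIN2, which coats lipid droplets, read 10.08, 10.05 and 10.00 with FABP4 shRNA, against 11.07, 11.44 and 11.45 with non-targeting shRNA (log2 fold change -1.28, SE 0.11, adjusted p = 7.64e-06). HILPDA, which inhibits the lipase of lipid droplets, read 9.69, 9.60 and 9.77 with FABP4 shRNA, against 11.15, 12.49 and 12.82 with non-targeting shRNA (log2 fold change -2.47, SE 0.30, adjusted p = 0.000129). Both fell against replicate 1 alone too (-1.03 and -1.46), and AQP3, a water and glycerol channel, fell by 1.00. SLC25A20, the carnitine carrier of mitochondria, rose by 0.66. Of 33 fatty acid oxidation genes, 4 rose and 5 fell, which is near the shares of all genes. Besides SLC25A20, the largest calls were CPT1C, a carnitine palmitoyltransferase of brain (0.74), the peroxisomal CROT (0.54) and the acyl-CoA dehydrogenase ACADM (-0.53). Among 17 genes of fatty acid binding and uptake, 4 rose and 2 fell, FABP4 among those that fell. The retinoid carrier CRABP2 (0.95) and caveolin CAV1 (0.65) rose, and the bile acid carrier FABP6 fell (-0.74). Of 13 PPAR and RXR receptors and coregulators, PPARGC1B (0.76) and LPIN1 rose, and RXRB (-0.47) and CREBBP (-0.38) fell. FABP6, RXRB, CREBBP and ACADM gave -0.42, -0.37, -0.36 and -0.20 against replicate 1 alone, where they were not called.

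Hypoxia and glycolysis genes were lower with FABP4 shRNA. Of 40 tested, 0 rose and 23 fell (median -0.53), against 14.2% and 12.2% of all genes, and all 3 FABP4 shRNA arrays lay below all 3 controls for 28 of them, against 16.4% of all genes. List medians were 0.31, 0.65 and 0.70 on non-targeting replicates 1 to 3, so that replicate 1 stood nearest to the FABP4 shRNA arrays. Against it alone 14 genes fell, where 7.63% of all genes did. The largest fall in the list was that of HILPDA (-2.47), which is also counted among the PPAR target genes above. ENO2, a glycolytic enolase, read 7.14, 7.21 and 7.34 with FABP4 shRNA, against 8.50, 9.26 and 9.84 with non-targeting shRNA (log2 fold change -1.96, SE 0.26, adjusted p = 0.000238). NDRG1, a gene named for its response to differentiation and known as a hypoxia target, read 11.80, 11.89 and 11.82 with FABP4 shRNA, against 13.29, 13.76 and 13.88 with non-targeting shRNA (log2 fold change -1.81, SE 0.18, adjusted p = 2.88e-05). SLC2A3, a high-affinity glucose transporter, read 6.73, 6.91 and 6.79 with FABP4 shRNA, against 7.61, 8.74 and 9.45 with non-targeting shRNA (log2 fold change -1.79, SE 0.35, adjusted p = 0.00268), and gave -0.80 against replicate 1 alone (adjusted p = 0.0881). The order of the controls was the same in all these genes, with replicate 1 lowest and replicate 3 highest. HIF1A, the transcription factor of the response, was chosen after its values were seen and gave -0.03 (adjusted p = 0.921).

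The core letters bound by hypoxia-inducible factors, ACGTGC or its complement, stood in 8 of 18 promoters of genes that fell in this list and in 11 of 35 of all its tested genes, against 6.87% of 27305 human promoters (RefSeq, GRCh38.p14; 250 bases before to 50 after the annotated start). The 18 are the fallen genes with a promoter in that table. A match describes the letters and does not show a site in use. The promoter of ANKRD37, a hypoxia-induced ankyrin repeat gene chosen after its values were seen (log2 fold change -1.32, adjusted p = 0.000701), is shown as an example. It held the core at 2 places, as did those of PGK1 and BNIP3. ENO2 is shown as the member with the largest fall that held the core. Sequences run 5′ to 3′ on the strand of the gene, with the core in capitals.
ANKRD37, chr4:185396591-185396890 (plus strand): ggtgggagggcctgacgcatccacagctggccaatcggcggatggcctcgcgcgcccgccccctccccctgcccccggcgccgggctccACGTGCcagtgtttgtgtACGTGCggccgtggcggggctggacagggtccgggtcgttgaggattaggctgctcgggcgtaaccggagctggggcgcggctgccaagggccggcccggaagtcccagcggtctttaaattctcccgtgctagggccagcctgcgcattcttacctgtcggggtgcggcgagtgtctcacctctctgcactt
ENO2, chr12:6914452-6914477 (plus strand): ccgcgctcgtACGTGCgcctccgccg

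Interferon-stimulated genes were lower with FABP4 shRNA, and here the list medians of the 3 controls were alike. Of 47 tested, 0 rose and 26 fell, against 14.2% and 12.2% of all genes (median -0.44), with list medians of 0.40, 0.48 and 0.38 on non-targeting replicates 1 to 3. When set against replicate 1 alone, 22 fell and 0 rose, against 7.63% and 7.00% of all genes. HERC5, the ligase that attaches ISG15 to proteins, read 7.53, 7.50 and 7.49 with FABP4 shRNA, against 9.22, 9.71 and 9.71 with non-targeting shRNA (log2 fold change -2.04, SE 0.14, adjusted p = 1.7e-06). IFIT2, which binds viral RNA, read 8.13, 8.10 and 8.22 with FABP4 shRNA, against 9.48, 9.96 and 10.36 with non-targeting shRNA (log2 fold change -1.79, SE 0.17, adjusted p = 1.99e-05). OASL, a relative of the antiviral oligoadenylate synthetases, read 9.51, 9.71 and 9.41 with FABP4 shRNA, against 10.92, 11.33 and 11.22 with non-targeting shRNA (log2 fold change -1.61, SE 0.14, adjusted p = 9.17e-06), and its other probe gave -1.68. All 3 controls were more than 1 log2 unit above every FABP4 shRNA array in each of these genes. Replicate 1 was intermediate for MX1, an antiviral GTPase that blocks viral nucleocapsids, at 7.43, 7.19 and 7.33 with FABP4 shRNA, against 8.03, 9.08 and 9.72 with non-targeting shRNA (log2 fold change -1.63, SE 0.29, adjusted p = 0.00166). For OAS1 it was within the FABP4 shRNA range (0.03 against it alone, adjusted p = 0.89, and -0.63 against all).

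The core of the interferon-stimulated response element, GAAANNGAA or its complement, stood in 13 of 19 promoters of fallen genes of this list and in 26 of 37 of all tested genes of the list, against 8.29% of the 27305 promoters. The share among fallen genes was thus like that in the whole list. The HERC5 promoter is printed as that of the largest fall, with 3 matches, of which 2 overlap. Windows of MX1 and of IFIT1, ISG15 and DDX60, the last 3 chosen after their values were seen (log2 fold changes -1.63, -1.42, -0.62 and -1.34), show the core in other members. Capitals mark the core, build and strands are as above, and in HERC5 and IFIT1 it stands as the complement. In the windows capitals mark 1 match each, and those of MX1 and ISG15 also hold overlapping matches left in lower case.
HERC5, chr4:88456869-88457168 (plus strand): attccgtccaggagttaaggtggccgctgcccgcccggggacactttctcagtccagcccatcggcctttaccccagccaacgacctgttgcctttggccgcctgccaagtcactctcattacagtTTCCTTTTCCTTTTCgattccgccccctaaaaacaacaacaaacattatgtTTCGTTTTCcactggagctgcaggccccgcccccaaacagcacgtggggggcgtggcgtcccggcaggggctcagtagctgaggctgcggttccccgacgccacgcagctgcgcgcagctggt
MX1, chr21:41420559-41420587 (plus strand): gagcagaaatGAAACCGAAactgaattgt
IFIT1, chr10:89392498-89392526 (plus strand): tagctttagtTTCACTTTCccctttcggt
ISG15, chr1:1013380-1013408 (plus strand): tcgggaaaggGAAACCGAAactgaagcca
DDX60, chr4:168318822-168318850 (minus strand): gtgctgaaggGAAACTGAAacctaagtgc

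The sensors of double-stranded RNA and the machinery of RNA interference are of interest where both groups carry a hairpin. Of 21 such genes, 5 rose and 4 fell, against 14.2% and 12.2% of all genes. TLR3, a sensor of double-stranded RNA, read 6.00, 6.37 and 6.27 with FABP4 shRNA, against 7.02, 7.74 and 7.76 with non-targeting shRNA (log2 fold change -1.29, SE 0.17, adjusted p = 0.000239), and its other probe gave -1.34. TNRC6B, a partner of Argonaute in silencing, gave 0.67 on the probe used and a value near 0 on its other probe. ZC3HAV1, an antiviral zinc finger protein, gave 0.72 on the brightest probe and -1.39 to -0.40 on others, so its direction depends on the probe. Against replicate 1 alone ZC3HAV1 gave 0.15 and was not called. Of 18 genes of MHC class I antigen presentation, 3 rose and 5 fell, and HLA-E read 10.42, 10.37 and 10.44 with FABP4 shRNA, against 10.94, 11.11 and 11.09 with non-targeting shRNA (log2 fold change -0.64, SE 0.09, adjusted p = 0.000392). Probes of HLA genes may not tell these related genes apart.

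NF-kB feedback genes and inflammatory cytokines were also lower. Of 24 NF-kB subunits and feedback genes, 0 rose and 10 fell, against 14.2% and 12.2% of all genes (median -0.44; 0.23, 0.58 and 0.37 on non-targeting replicates 1 to 3). RELB, an NF-kB subunit, read 5.57, 5.50 and 5.88 with FABP4 shRNA, against 6.82, 6.78 and 6.80 with non-targeting shRNA (log2 fold change -1.15, SE 0.12, adjusted p = 3.68e-05). NFKBIA, the inhibitor that NF-kB induces, read 11.33, 11.37 and 11.27 with FABP4 shRNA, against 11.79, 12.59 and 12.57 with non-targeting shRNA (log2 fold change -0.99, SE 0.17, adjusted p = 0.00117). The controls lay within 0.1 of each other for RELB, whereas replicate 1 was intermediate for NFKBIA and for the early response gene IER3 (-1.07). Replicate 1 was also intermediate for TNFAIP3, a deubiquitinase that ends the signal (-0.93). TNFAIP3 gave -0.41 against replicate 1 alone, where it was not called. Of 24 chemokines and cytokines, 1 rose and 8 fell. IL23A, a subunit of interleukin 23, read 5.07, 4.89 and 5.38 with FABP4 shRNA, against 7.42, 7.16 and 6.96 with non-targeting shRNA (log2 fold change -2.07, SE 0.14, adjusted p = 1.65e-06). CCL20, which attracts cells with the receptor CCR6, was detected on no FABP4 shRNA array and was at least 2.90-fold lower (adjusted p = 8.18e-05). CXCL10, which attracts T cells, was detected on 1 FABP4 shRNA array and gave -1.04.

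Genes of basal and squamous epithelium were higher with FABP4 shRNA in 8 of 20 cases and lower in 2, against 14.2% and 12.2% of all genes (median 0.24), with list medians of -0.30, -0.27 and -0.21 on non-targeting replicates 1 to 3. Besides CALML3, KRT14 and KRT5, the calmodulin-like CALML5 read 7.09, 6.83 and 6.77 with FABP4 shRNA, against 5.37, 6.00 and 6.08 with non-targeting shRNA (log2 fold change 1.08, SE 0.16, adjusted p = 0.000379). Of 34 luminal urothelial genes, 14 fell and 2 rose, against 12.2% and 14.2% of all genes (median -0.28). ELF3, an epithelial transcription factor, read 10.00, 10.00 and 10.00 with FABP4 shRNA, against 10.89, 11.87 and 12.02 with non-targeting shRNA (log2 fold change -1.60, SE 0.22, adjusted p = 0.000255). TRIM31, a ubiquitin ligase, gave -1.35 (-0.51 on its other probe) and the surface protein VSIG2 gave -1.27. Replicate 1 lay between the groups for the luminal list, with medians of 0.14, 0.43 and 0.44 on non-targeting replicates 1 to 3. Against replicate 1 alone the median log2 fold change of the list was -0.14. SNX31, a sorting protein of umbrella cells, read 7.99, 8.03 and 7.85 with FABP4 shRNA, against 8.33, 9.68 and 9.62 with non-targeting shRNA and fell by 1.25 against all controls, but gave -0.37 against replicate 1 (adjusted p = 0.165).

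Other epithelial lists held single genes with large changes, and their counts stand beside 14.2% of all genes higher and 12.2% lower. Of 29 cornified envelope and S100 genes, 6 rose and 3 fell, and the protease inhibitor CSTA read 6.18, 5.85 and 5.79 with FABP4 shRNA, against 7.02, 7.30 and 7.48 with non-targeting shRNA (log2 fold change -1.33, SE 0.13, adjusted p = 2.3e-05). Of 24 mucins and secreted defence proteins, 2 rose and 6 fell, with the mucin MUC1 at -1.25 and the disulfide isomerase AGR2 at -0.96. Of 24 junction genes, 5 rose and 6 fell. CLDN7, a tight junction claudin, read 9.16, 9.34 and 9.22 with FABP4 shRNA, against 10.48, 10.13 and 10.21 with non-targeting shRNA (log2 fold change -1.03, SE 0.10, adjusted p = 2.61e-05). Among 21 metalloproteinase and plasminogen system genes, 4 rose and 3 fell, and the protease inhibitor SERPINE2 read 11.87, 11.90 and 11.87 with FABP4 shRNA, against 10.89, 10.60 and 10.47 with non-targeting shRNA (log2 fold change 1.23, SE 0.13, adjusted p = 3.68e-05). The smooth muscle gene TAGLN read 8.25, 7.91 and 8.32 with FABP4 shRNA, against 6.84, 6.77 and 6.36 with non-targeting shRNA (log2 fold change 1.50, SE 0.17, adjusted p = 7.82e-05) and the collagen COL5A1 read 10.36, 10.33 and 10.38 with FABP4 shRNA, against 9.52, 8.70 and 8.77 with non-targeting shRNA (log2 fold change 1.36, SE 0.18, adjusted p = 0.000217), while of 16 mesenchymal genes 4 rose and 3 fell. COL5A1, COL1A1 (0.90) and LUM (0.65, chosen after its values were seen) are also markers of fibroblasts. Of 10 fibroblast markers, 5 were tested and 3 were detected on all 6 arrays. The summed linear intensity of the tested markers was 2035 to 2050 with FABP4 shRNA and 929 to 1123 with non-targeting shRNA, and DCN and COL1A2 were detected on no UM-UC14 array. The part of other cells in these rises was not tested.

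Markers of blood and of adipocytes were called in no case: 7 of 10 blood markers and 3 of 7 adipocyte markers were tested, and 1 of each was detected on all 6 arrays. Summed linear intensity was 177 to 204 with FABP4 shRNA and 195 to 216 with non-targeting shRNA for blood, and 203 to 224 with FABP4 shRNA and 178 to 209 with non-targeting shRNA for adipocytes. Of 7 endothelial markers 3 were tested, and CDH5 fell, with sums of 195 to 231 with FABP4 shRNA and 202 to 359 with non-targeting shRNA.

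The integrated stress response separated the control arrays from each other. This pathway halts general translation through phosphorylated eIF2α and favours ATF4, which switches on amino acid synthesis, transport and stress genes. Of 34 genes tested, 12 fell and 2 rose with FABP4 shRNA, against 12.2% and 14.2% of all genes (median -0.33). The list median was 0.51, 0.69 and -0.02 on non-targeting replicates 1 to 3, so that replicate 3 lay at the level of the FABP4 shRNA arrays. Against replicate 1 alone 21 genes fell and 0 rose, where 7.63% and 7.00% of all genes did.

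In its early stress genes, all 3 controls were above the FABP4 shRNA arrays. DDIT3, the death-linked transcription factor CHOP, read 8.75, 8.83 and 8.53 with FABP4 shRNA, against 12.14, 12.77 and 11.04 with non-targeting shRNA (log2 fold change -3.28, SE 0.31, adjusted p = 2.16e-05). PPP1R15A, which directs a phosphatase to eIF2α, read 8.71, 8.50 and 8.52 with FABP4 shRNA, against 11.06, 11.47 and 10.82 with non-targeting shRNA (log2 fold change -2.54, SE 0.17, adjusted p = 1.65e-06). ATF3, a stress-induced transcription factor, read 6.74, 6.76 and 6.62 with FABP4 shRNA, against 9.43, 9.57 and 8.37 with non-targeting shRNA (log2 fold change -2.42, SE 0.23, adjusted p = 2.3e-05). These 3 genes and GDF15 did not overlap between groups, and replicate 3 was the lowest control for all but GDF15. KLHL24, an adaptor of a ubiquitin ligase, read 6.42, 6.43 and 6.58 with FABP4 shRNA, against 7.63, 8.29 and 8.85 with non-targeting shRNA (log2 fold change -1.78, SE 0.23, adjusted p = 0.000161). It had the opposite order, with replicate 3 highest. CEBPB, a transcription factor, gave -0.63, STC2, a secreted glycoprotein, -1.08, SLC38A2, an amino acid transporter, -0.62, and the kinase EIF2AK3, which senses unfolded proteins, -0.67. Of these, SLC38A2 gave -0.15 against replicate 1 alone, where it was not called.

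In several of its amino acid and feedback genes, replicate 3 was within or below the FABP4 shRNA range. TRIB3, a pseudokinase that feeds back on ATF4, read 9.32, 9.12 and 8.89 with FABP4 shRNA, against 11.35, 11.20 and 8.78 with non-targeting shRNA (log2 fold change -1.33, SE 0.47, adjusted p = 0.0518). ASNS, which makes asparagine, read 11.02, 10.99 and 10.41 with FABP4 shRNA, against 12.26, 11.86 and 10.63 with non-targeting shRNA (log2 fold change -0.78, SE 0.31, adjusted p = 0.0767). PSPH, of serine synthesis, read 8.23, 8.42 and 8.34 with FABP4 shRNA, against 9.12, 8.87 and 7.21 with non-targeting shRNA (log2 fold change -0.07, SE 0.34, adjusted p = 0.911), and its other probe gave 0.62. None of these passed against all controls. Against replicate 1 alone TRIB3 gave -2.24 (adjusted p = 1.03e-05), ASNS -1.45 (adjusted p = 0.00123) and PSPH -0.79 (adjusted p = 0.00266). SESN2, a stress-induced regulator of growth signalling, read 6.66, 6.43 and 6.43 with FABP4 shRNA, against 7.14, 7.61 and 5.43 with non-targeting shRNA (-0.22, adjusted p = 0.718). CHAC1, which degrades glutathione, read 6.70, 6.89 and 6.22 with FABP4 shRNA, against 6.22, 7.46 and 4.96 with non-targeting shRNA (0.39, adjusted p = 0.532). For SESN2 and CHAC1 replicate 3 was below every FABP4 shRNA array and replicate 2 above. CTH, which makes cysteine, gave -0.78 and passed (adjusted p = 0.0192), SLC7A11, the cystine importer, -1.01, and SHMT2, of serine and glycine metabolism, -0.37.

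ATF4 itself read 13.64, 13.72 and 13.56 with FABP4 shRNA, against 13.48, 13.84 and 13.62 with non-targeting shRNA (adjusted p = 0.987), with the groups overlapping, and its other probes gave -0.17 to -0.07. ATF5, a related factor, rose, with 9.51, 9.41 and 9.33 with FABP4 shRNA, against 9.24, 8.06 and 8.22 with non-targeting shRNA (log2 fold change 0.91, SE 0.23, adjusted p = 0.0105). It gave 0.17 against replicate 1 alone (adjusted p = 0.466). Of the eIF2α kinases, EIF2AK4 rose by 0.32 (adjusted p = 0.0478), and EIF2AK1 (-0.11) and EIF2AK2 (0.05) did not pass. EIF2AK4 gave 0.26 against replicate 1 alone, where it was not called. The remaining members that did not pass were CBS (-0.56), CEBPG (-0.39), SLC3A2 (-0.38), DDIT4 (-0.28), VLDLR (-0.24), TNFRSF10B (-0.16), MTHFD2 (-0.15), PSAT1 (-0.05), PHGDH (-0.05), PYCR1 (0.17) and the transporter SLC7A5, which read 13.33, 13.29 and 13.22 with FABP4 shRNA, against 13.66, 13.35 and 12.84 with non-targeting shRNA. NUPR1, a stress-induced nuclear protein, was detected on 1 of the 6 arrays and has no measured difference. The letters TGATGNAA, a core of sites for C/EBP and ATF dimers, or their complement, stood in 1 of 10 promoters of fallen genes, that of ATF3, and in 4 of 27 of all tested genes of the list, against 3.67% of all promoters.

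**Figure D4:**
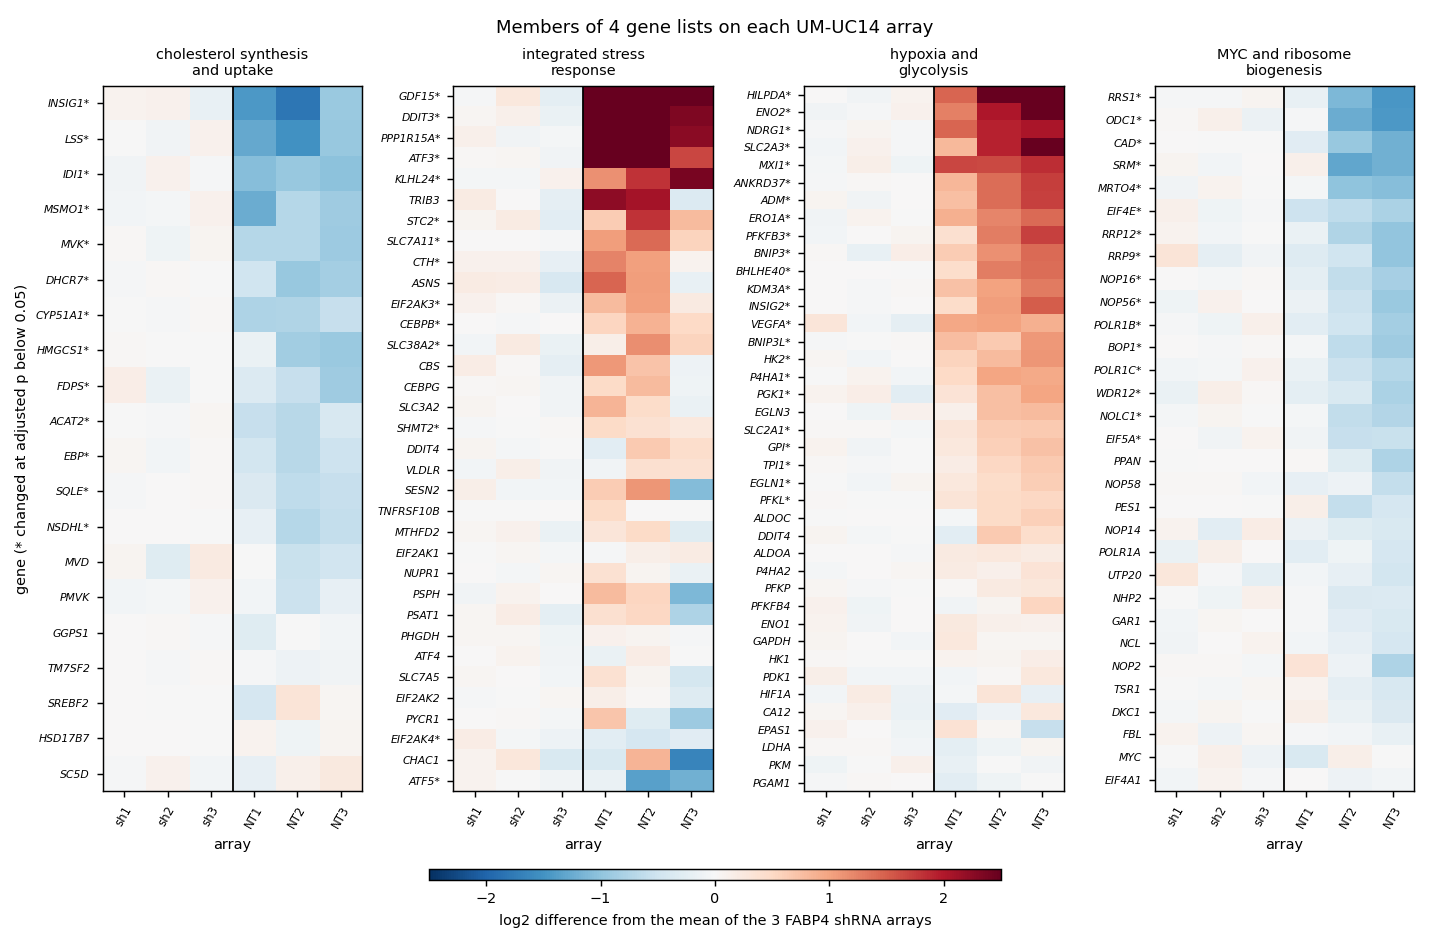
Log2 difference from the mean of the 3 FABP4 shRNA arrays for every tested member of 4 lists (genes down the page, asterisks for those changed at adjusted p below 0.05), on FABP4 shRNA arrays (sh1 to sh3, left) and non-targeting arrays (NT1 to NT3, right); colours end at 2.5. The 13 risen cholesterol genes are lower on all 3 NT arrays, TRIB3, ASNS and PSPH are high on NT1 and NT2 but not on NT3, and MYC list genes such as ODC1 and SRM are at the FABP4 shRNA level on NT1.

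Chaperones and other genes of the unfolded protein response in the endoplasmic reticulum had the same layout. Of 23 tested, 0 rose and 8 fell, against 14.2% and 12.2% of all genes (median -0.46), with list medians of 0.72, 0.67 and -0.01 on non-targeting replicates 1 to 3, and 18 fell against replicate 1 alone, where 7.63% of all genes did. DNAJB9, a chaperone that the stress sensor IRE1 induces, read 7.07, 7.27 and 7.15 with FABP4 shRNA, against 9.74, 9.95 and 7.95 with non-targeting shRNA (log2 fold change -2.05, SE 0.36, adjusted p = 0.0015). SYVN1, a ubiquitin ligase for misfolded proteins, read 9.22, 9.22 and 9.31 with FABP4 shRNA, against 10.64, 10.52 and 9.51 with non-targeting shRNA (log2 fold change -0.97, SE 0.21, adjusted p = 0.00537). ERO1A, an oxidase of the endoplasmic reticulum that hypoxia also induces, read 10.21, 10.38 and 10.29 with FABP4 shRNA, against 11.18, 11.52 and 11.72 with non-targeting shRNA (log2 fold change -1.18, SE 0.14, adjusted p = 0.000126) and differed in that replicate 3 was its highest control. HYOU1 and CRELD2 were chosen after their values were seen. The chaperone HYOU1 read 9.55, 9.39 and 9.75 with FABP4 shRNA, against 11.33, 10.33 and 9.09 with non-targeting shRNA (-0.69, adjusted p = 0.185), and CRELD2 read 11.02, 10.96 and 11.00 with FABP4 shRNA, against 11.95, 11.13 and 9.91 with non-targeting shRNA (adjusted p = 0.996). For both, replicate 3 was below every FABP4 shRNA array and replicate 1 well above. Among 18 aminoacyl-tRNA synthetases, 2 rose and 2 fell, and AARS1 read 12.21, 12.19 and 12.18 with FABP4 shRNA, against 13.15, 13.09 and 12.18 with non-targeting shRNA (log2 fold change -0.61, SE 0.19, adjusted p = 0.0285).

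MYC and ribosome biogenesis genes gave the opposite layout, with replicate 1 at the FABP4 shRNA level. Of 31 tested, 16 rose and 0 fell, against 14.2% and 12.2% of all genes (median 0.41), with list medians of -0.08, -0.49 and -0.74 on non-targeting replicates 1 to 3. Against replicate 1 alone 0 were called, at a list median of 0.08. Without it 25 rose, where 21.2% of all genes did. ODC1, which starts polyamine synthesis, read 11.14, 11.24 and 10.97 with FABP4 shRNA, against 11.09, 9.87 and 9.68 with non-targeting shRNA (log2 fold change 0.90, SE 0.26, adjusted p = 0.0224). RRS1, a ribosome assembly factor, read 10.00, 9.99 and 10.10 with FABP4 shRNA, against 9.85, 8.92 and 8.57 with non-targeting shRNA (log2 fold change 0.92, SE 0.23, adjusted p = 0.0097). SRM, which makes spermidine, read 9.75, 9.61 and 9.69 with FABP4 shRNA, against 9.81, 8.39 and 8.47 with non-targeting shRNA (log2 fold change 0.79, SE 0.27, adjusted p = 0.0458), and CAD, of pyrimidine synthesis, gave 0.81 (adjusted p = 0.00508). SRM in replicate 1 was above every FABP4 shRNA array. Against replicate 1 alone ODC1, RRS1, CAD and SRM gave 0.02, 0.18, 0.29 and -0.12 and were not called. MYC, chosen after its values were seen, read 11.63, 11.77 and 11.51 with FABP4 shRNA, against 11.26, 11.78 and 11.62 with non-targeting shRNA (0.08, adjusted p = 0.692). The E-box CACGTG that MYC binds stood in 4 of 12 promoters of risen genes and in 9 of 25 of all tested genes of the list, against 7.43% of all promoters.

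Of 27 proteasome subunits, 12 rose and 0 fell, against 14.2% and 12.2% of all genes (median 0.28), with list medians of -0.12, -0.41 and -0.43. Against replicate 1 alone the median log2 fold change of the list was 0.12. PSMB2, a subunit of the catalytic core, read 12.09, 12.23 and 12.23 with FABP4 shRNA, against 12.01, 11.38 and 11.49 with non-targeting shRNA (log2 fold change 0.56, SE 0.14, adjusted p = 0.0096), and PSMD1, of the regulatory cap, gave 0.54. PSMB2 gave 0.18 against replicate 1 alone, where it was not called. Of 30 genes of FGFR and ERK output, 10 fell and 6 rose, at list medians of -0.07, 0.39 and 0.31. SPRY1, a feedback inhibitor of receptor tyrosine kinases, read 7.03, 7.26 and 6.96 with FABP4 shRNA, against 7.80, 9.09 and 9.29 with non-targeting shRNA (log2 fold change -1.64, SE 0.28, adjusted p = 0.00116), and DUSP5, a phosphatase of nuclear ERK, gave -1.49. Of 20 that respond to TGF-beta and BMP, 8 fell and 4 rose, at medians of -0.01, 0.36 and 0.09. ID2, an inhibitor of helix-loop-helix factors, read 7.75, 7.51 and 7.59 with FABP4 shRNA, against 7.79, 9.12 and 9.71 with non-targeting shRNA (log2 fold change -1.26, SE 0.33, adjusted p = 0.0135) and gave -0.17 against replicate 1 alone (adjusted p = 0.512). Of 28 in the metabolism of retinoids, xenobiotics and steroids, 6 fell and 3 rose, at medians of -0.10, 0.27 and 0.29. HPGD, which inactivates prostaglandins, read 8.71, 8.95 and 8.85 with FABP4 shRNA, against 9.36, 10.66 and 10.39 with non-targeting shRNA (log2 fold change -1.30, SE 0.23, adjusted p = 0.00157), and ALDH1A3, which makes retinoic acid, gave -0.72, with -0.71 against replicate 1.

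The remaining lists had few calls or small medians, and their counts stand beside 14.2% of all genes higher and 12.2% lower. Of 47 oxidative phosphorylation genes, 13 rose and 1 fell (median 0.15). Changes were under 2-fold, the largest being ATP5MC1, of the ATP synthase rotor (0.65). Of 41 genes used in G2 and M phase, 8 rose and 0 fell (median 0.16), with the mitotic kinase PLK1 at 0.61 and the proliferation marker MKI67 at 0.61. Against replicate 1 alone MKI67 gave 0.33 and ATP5MC1 0.24, and neither was called. Of 40 used in S phase, 8 rose and 3 fell, with the replication helicase subunit GINS2 at 0.80. Of 62 cytosolic ribosomal proteins 5 rose and 6 fell (median -0.01), and RPL13 gave -0.62 on the probe used but 1.20 on its other probe. Of 21 p53 target genes 1 rose and 4 fell, with the growth arrest genes GADD45B (-1.89) and GADD45A (-1.44) the largest. Of 25 apoptosis and survival genes 6 rose and 5 fell, with the pro-death gene BIK at -1.15. Of 29 genes of NRF2 and glutathione, 3 rose and 7 fell, and GCLC, of glutathione synthesis, read 8.78, 8.93 and 8.98 with FABP4 shRNA, against 9.92, 9.95 and 9.73 with non-targeting shRNA (log2 fold change -0.97, SE 0.12, adjusted p = 0.000154). Of 20 heat shock proteins 4 rose and 3 fell. HSPA6, an inducible HSP70, read 4.90, 5.19 and 4.86 with FABP4 shRNA, against 7.70, 7.07 and 6.08 with non-targeting shRNA (log2 fold change -1.97, SE 0.28, adjusted p = 0.000383), but its other probe gave -0.14.

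Genes that changed with FABP4 shRNA were set beside their change with rosiglitazone, a drug that activates PPARG, in UM-UC9. The comparisons share no arrays but differ in cell line. FABP4 gave -3.71 with the shRNA and 3.69 with rosiglitazone. In all, 1547 genes were called in both, which is 44.2% of the genes changed by the shRNA and 32.3% of the 4789 changed by rosiglitazone (36.0% of all genes). Of these, 1190 had opposite directions. Of the 75 that changed at least 2-fold in both, 56 had opposite directions. GDF15 gave 3.33 with rosiglitazone, HILPDA 1.16, PLIN2 1.64 and S100A8 -1.04. The difference between the changes passed the test for each of these (adjusted p = 1.09e-08, 3.84e-05, 2.53e-08 and 1.4e-06). It also passed for all 660 genes higher with FABP4 shRNA and lower with rosiglitazone, and for all 530 with the reverse. The test therefore adds nothing to the 2 opposite calls of a gene. Not all genes were opposite. INSIG1 gave 1.57 and HERC5 -1.33 with rosiglitazone. Of the 20 cholesterol genes, 14 were called higher and 2 lower with rosiglitazone, and of the 47 interferon genes 5 higher and 32 lower. The larger counts of these 2 lists have the same direction as with FABP4 shRNA. Hypoxia genes (21 higher and 4 lower of 40) and MYC genes (0 higher and 24 lower of 31) had the opposite direction.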

How the data were processed

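Total RNA of cultured cells was read on Illumina bead arrays, 12 in all. The deposited table holds mean bead intensity for each of 47323 probes, neither background-corrected nor scaled, with a detection p-value beside each value, per the file headers and the values. The authors' processed log2 values were found to be the quantile-normalized log2 of those intensities (largest difference 0.000208) and served as an alternative, and no source used here names the tool that made them. Groups came from the cell line and treatment labels.

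Intensities were background-corrected from the detection p-values, raised by an offset of 16, quantile-normalized over the 12 arrays and log2-transformed with neqc (limma 3.58.1, R 4.3.3). A probe was kept if its detection p was below 0.05 on at least 3 of 12 arrays. Of 25176 kept probes, 18384 had 1 gene in GEO's platform annotation, and the brightest stood for each of 13293 genes. Means of 4 groups were fitted with lmFit and eBayes, and p-values were adjusted over all genes with the method of Benjamini and Hochberg. The fit was tested on simulated data. A called gene below detection on every array of its dimmer group is given as a bound. Named genes were drawn from FABP4, PPARG, the 15 largest rises and falls among called genes whose groups did not overlap and that were detected on all 3 arrays of the brighter group, the 5 genes highest and the 5 lowest on non-targeting replicate 1, the tested members of the cholesterol and stress response lists, and the 4 largest calls of each other list, of which the text gives some. The members and lists were chosen with earlier results of these data known. No label states that same-numbered replicates of the groups belong together, so the main fit did not pair them. Alternatives covered background correction, scaling, filters, probe choice, array weights, the arrays in the fit and each array left out. No label or header gives a batch.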

Additional observations from a re-analysis of the deposited data

How the results depend on the processing

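FABP4 kept its direction and its call under every alternative run. The count of changed genes, 3502, was 1779 (895 higher, 884 lower) with the 6 UM-UC14 arrays alone, which estimate the spread from fewer arrays. It was 1498 (705 higher, 793 lower) with the replicate number as a block in that fit. Same-numbered arrays deviated together by r of 0.03, 0.147 and 0.018, and differently numbered ones by -0.12 to 0.067. With so few arrays these values cannot tell whether same-numbered arrays share a culture, and no source used here states a pairing. The count also moved with the number and choice of control arrays, which a fit with a single control cannot tell apart. When non-targeting replicate 1 alone stood for the controls it was 1945 (931 higher, 1014 lower). Leaving out each array in turn gave 2377 to 5248 genes, 1212 to 2823 higher and 1161 to 2425 lower. The highest counts came without non-targeting replicate 1, and the count of higher genes fell furthest without FABP4 shRNA replicate 3 (1212) and without non-targeting replicate 2 (1237). Against replicate 1 alone TXNIP (-0.317), SRM (-0.122), the small heat shock protein HSPB8 (0.033), OAS1 (0.033) and CYP3A7 (0.154) turned their direction, and 50 of the named genes were no longer called. With the mean of a gene's probes, ZC3HAV1 (-0.356) and RPL13 (0.289) turned. With median scaling, 19 hypoxia genes fell and 1 rose, 20 interferon genes fell and 1 rose, and 13 cholesterol genes rose and 0 fell. Among all genes 2590 rose and 1111 fell in that setting, which favours rises. Of the list counts, 20 moved and 54 held with median scaling. With the UM-UC14 arrays alone 37 moved and 37 held, and with the replicate block 41 moved and 33 held. Leaving out each array in turn moved 22 to 25. The cause was not tested beyond these values. Dim genes near background limit what the arrays can show.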
